A study of Homo sapiens with 6 samples.

Results

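The conversion of a B cell leukemia line into macrophage-like cells in the absence of CTCF was compared with the starting cells. The comparison set 2 RNA-seq libraries collected at 96 h, from cells given auxin together with the transdifferentiation factors, against 2 libraries collected at 0 h. Each gene was then placed beside its change in the conversion with CTCF (96 h control against 0 h). Of 30017 gene symbols in the count table, 14758 had enough counts to be tested. A gene counted as changed where the adjusted p was under 0.01 and the absolute log2 fold change over 0.6, in edgeR's quasi-likelihood test with Benjamini-Hochberg adjustment. The calls of 3 comparisons were joined: CTCF-depleted 96 h against 0 h, control 96 h against 0 h, and CTCF-depleted against control at 96 h. They put 1685 of the 14758 genes (11.4%) into 6 classes. Genes called in the control conversion could rise and fall short, fall and stop short, rise and overshoot, or fall and overshoot without CTCF. The remaining classes are genes that rose and genes that fell without CTCF but were not called in the control conversion. Each class required a call between the CTCF-depleted and control libraries at 96 h. The calls chose the classes, so class sizes and the differences that chose a member are descriptions.

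C/EBPα, a transcription factor of the myeloid lineage, can turn B cell precursors into macrophage-like cells when it is activated in them. B cell genes such as the recombinase genes and the pre-B receptor genes are shut off on this path, and genes for phagocytosis, lysosomal digestion and innate sensing are switched on. CTCF is a zinc finger protein that binds DNA and stalls cohesin, the ring complex that extrudes chromatin loops, and the loops and domain boundaries formed in this way can bring enhancers to promoters or keep them apart.

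All 6 libraries came from the BLaER subclone CTCF-AID, a clone of a human leukemia cell line. Its CTCF is fused to a degron that auxin triggers, and it carries an introduced C/EBPα that responds to estradiol. The 0 h cells grew in plain medium, the 96 h control cells received 17β-estradiol, IL-3 and CSF-1 without auxin, and the 96 h CTCF-depleted cells received the same factors with auxin added at the start. There were 2 replicates in each group, all of 1 subclone. No auxin-treated cells lacking the degron are among these libraries, so that effects of auxin itself and of CTCF loss cannot be told apart. Whether reads of the introduced C/EBPα were counted under *CEBPA* was not tested. *CEBPA* had a mean of 316 CPM at 0 h, 299.5 in control and 308 in CTCF-depleted libraries.

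Library totals ranged from 9273470 to 12718780 counts. Levels are given as CPM, read counts scaled to the TMM-adjusted size of each library, with replicate 1 before replicate 2. They compare a gene with itself only, since they are not divided by gene length. *CTCF* (chromosome 16, 67562467 to 67639177, hg38) had 231 and 214 CPM at 0 h, 181 and 174 in 96 h control and 191 and 189 in CTCF-depleted libraries. The degron acts on the protein, so this transcript does not measure the depletion. In bulk RNA, fewer expressing cells and less RNA per cell cannot be told apart. With 2 libraries a group the smallest two-sided p of an exact permutation test is 0.333, so p-values here come from the fit across all genes. They measure the spread between these libraries, which may be technical. The defining B cell gene *PAX5* (795 and 793 CPM) was present at 0 h. There the macrophage genes *CD14* (0 and 0.3 CPM), *TYROBP* (0.103 and 0 CPM) and *LYZ* (0.309 and 0.45 CPM) were at or near 0. At 96 h without CTCF, *CD14* reached 14.2 and 17.4 CPM, with 10.1 and 12.9 CPM in control. *TYROBP* reached 63.3 and 55.2 CPM, with 53.7 and 50.8 CPM in control.

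Without CTCF, 4016 genes rose from 0 h to 96 h (27.2% of those tested) and 3726 fell (25.2%), 52.5% in either direction. The control conversion, which shares the 0 h libraries, gave 3748 rises (25.4%) and 3376 falls (22.9%), 48.3% in either direction. CTCF-depleted and control libraries at 96 h differed at 1836 genes (12.4%), of which 798 were higher (5.41%) and 1038 lower (7.03%) without CTCF. Most of the program was carried out in both conversions: 2789 genes rose and 2451 fell in both with no call between the 96 h groups. Of the genes called in the control conversion, 346 rising genes (2.34% of those tested) and 208 falling genes (1.41%) stopped short without CTCF, and 266 rising (1.8%) and 376 falling genes (2.55%) went further. A further 243 genes (1.65%) rose and 246 (1.67%) fell past the thresholds only without CTCF, with the difference between the 96 h groups itself called.

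**Figure D1:**
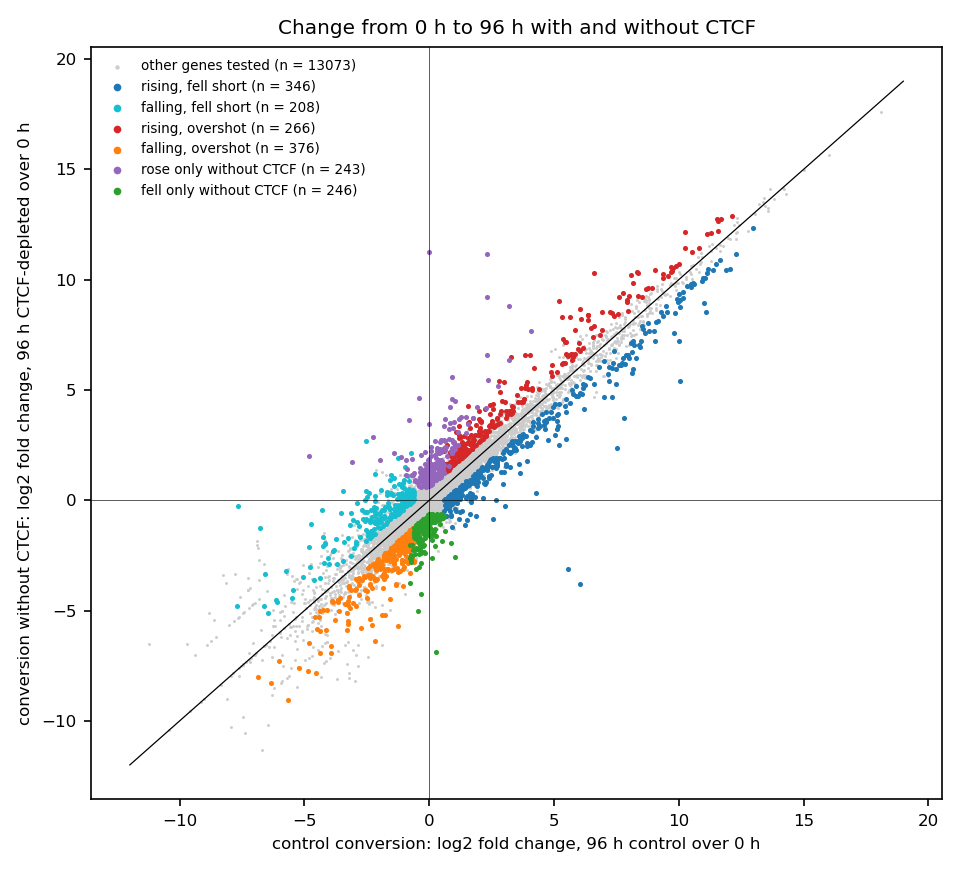
Log2 fold change of each tested gene from 0 h to 96 h, with CTCF on the horizontal axis and without CTCF on the vertical axis. The 6 classes are coloured and the remaining genes grey, and genes with no counts at 0 h are drawn at their fitted value. Most genes lie near the diagonal, and the classes spread to both sides of it, 968 genes below (lower at 96 h without CTCF) and 717 above.

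The sizes of these departures are described class by class. Over the rising genes that fell short, the median log2 difference between CTCF-depleted and control libraries at 96 h was -0.97. Of these genes, 235 of the 346 were still called higher than at 0 h, 105 were no longer called and 6 were called lower than at 0 h. Falling genes that fell short had a median difference of 1.21, and for 116 of the 208 the fall was not called at all without CTCF, while 13 were called higher than at 0 h. Among genes with more than 3 counts in each group, the rising genes that fell short made a median of 51.9% of their control log2 change (interquartile range 19.3 to 74.6%, 264 genes). The falling ones made 24.8% (-13.6 to 48.7%, 201 genes). Overshooting genes made 155% (133 to 185%, 202 genes) when rising and 175% (151 to 207%, 370 genes) when falling. Whether a class lies under or over the full control change follows from its definition. With a fixed fold threshold the percentage also depends on the size of the control change. That change had a median of 3.06 for rising and -1.68 for falling genes that fell short. The percentages are therefore not compared between classes. The genes nearest the boundary were close together: *TTC7A* at -0.600 was the last gene inside the rising genes that fell short and *GADD45B* at -0.595 the nearest outside. Of the 1685 class genes, 898 (53.3%) kept their class whichever of the 6 libraries was left out.

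The 5 rises and 5 falls with the smallest adjusted p in the conversion without CTCF are given first. *LYZ*, lysozyme, went from 0.309 and 0.45 CPM at 0 h to 4168 and 4147 CPM without CTCF, with 4658 and 4396 CPM in control. Its rise was 13.34 (SE 0.12, edgeR adjusted p = 9.38e-62) on the log2 scale and was not called between the 96 h groups. *AHNAK*, a giant scaffold protein, rose from 3.40 and 2.85 to 1680.3 and 1727 CPM (9.10, SE 0.09, edgeR adjusted p = 1.17e-60). *STAB1*, the scavenger receptor stabilin, rose from 0.309 and 0.15 to 1050.4 and 1047 CPM (12.17, SE 0.12, edgeR adjusted p = 3.65e-60). The leukocyte myosin gene *MYO1F* rose from 1.13 and 1.13 to 1012 and 1011 CPM (9.79, SE 0.10, edgeR adjusted p = 5.35e-60). *FN1*, fibronectin, had 10.3 and 7.95 CPM at 0 h and 7308 and 7782 CPM in control, and went beyond that to 12466 and 11913 CPM without CTCF. Its change from 0 h was 10.41 (SE 0.10, edgeR adjusted p = 1.74e-61) without CTCF, against 9.72 (SE 0.10) in the control conversion.

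On the B cell side, *RAG1*, a subunit of the V(D)J recombinase, had 644 and 632 CPM at 0 h, 8.21 and 7.41 in control and 2.41 and 1.66 without CTCF, a log2 change without CTCF of -8.29 (SE 0.09, edgeR adjusted p = 7.54e-58). *IL7R*, the interleukin-7 receptor of B cell precursors, went from 1534 and 1568 to 87.1 and 95.2 CPM in control and to 47.9 and 51.3 CPM without CTCF. The CTCF-depleted libraries lay below both control libraries for both genes. *DNTT*, the polymerase that adds untemplated bases during recombination, went the other way between the 96 h groups, with 719.8 and 704 CPM at 0 h, 9.44 and 10.0 in control and 13.1 and 13.8 without CTCF. It fell without CTCF, by a log2 change of -5.72 (SE 0.07, edgeR adjusted p = 8.08e-57), and the difference between the 96 h groups, 0.47, lay under the fold threshold. *PLS3*, an actin bundling protein, fell without CTCF, with a log2 change of -4.66 (SE 0.06, edgeR adjusted p = 2.15e-56). *AKAP12*, a kinase anchoring protein, ended at 21.7 and 19.6 CPM without CTCF and 32.3 and 32.5 CPM in control; without CTCF-depleted replicate 2 that difference was -0.55 (adjusted p = 9.24e-06), short of the fold threshold.

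In each class, 5 genes are named by the size of their difference at 96 h. They were taken from genes with at least 10 CPM in a group and with both CTCF-depleted libraries beyond both control libraries, outside clustered families and unnamed loci, and genes outside these limits can differ more. Among rising genes that stopped short, *HES1* (chromosome 3, 194136148 to 194138732), a repressor that answers Notch signalling, had no count at 0 h, 11.6 and 12.3 CPM in control and 0.185 and 0.737 CPM without CTCF. The control libraries were thus at least 91.9-fold higher than at 0 h, against at least 3.54-fold without CTCF, each taken against 3 counts over the 0 h libraries, and the CTCF-depleted libraries sat between the other groups without overlap. Its rise without CTCF was not called when CTCF-depleted replicate 2 (adjusted p = 0.0611) or 0 h replicate 2 (adjusted p = 0.0171) was left out. *CMKLR1*, the receptor of the chemoattractant chemerin, had no count at 0 h, 11.6 and 11.4 CPM in control and 1.76 and 1.57 CPM without CTCF, at least 12.8-fold above 0 h compared with at least 88.5-fold. *VSIG4*, a complement receptor of tissue macrophages, also started from no count and reached 26.4 and 22.8 CPM in control but 4.72 and 3.68 CPM without CTCF, at least 189-fold and 32.3-fold over 0 h.

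*F13A1*, the A subunit of coagulation factor XIII, had 0.103 and 0.375 CPM at 0 h, 13.1 and 11.2 in control and 1.85 and 1.84 without CTCF. The log2 difference between the 96 h groups was -2.71 (SE 0.24), and the groups did not overlap. *PRL*, prolactin, rose from 1.34 and 0.75 to 13.2 and 12.04 CPM in control and reached 2.13 and 2.67 CPM without CTCF (1.25, SE 0.37, edgeR adjusted p = 0.00222). For *PRL* the rise without CTCF was not called in DESeq2 (adjusted p = 0.0149), without 0 h replicate 2 (0.82, adjusted p = 0.0852) or without CTCF-depleted replicate 2 (1.11, adjusted p = 0.0272). For all 5 genes the CTCF-depleted libraries held a small part of the control level.

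**Figure D2:**
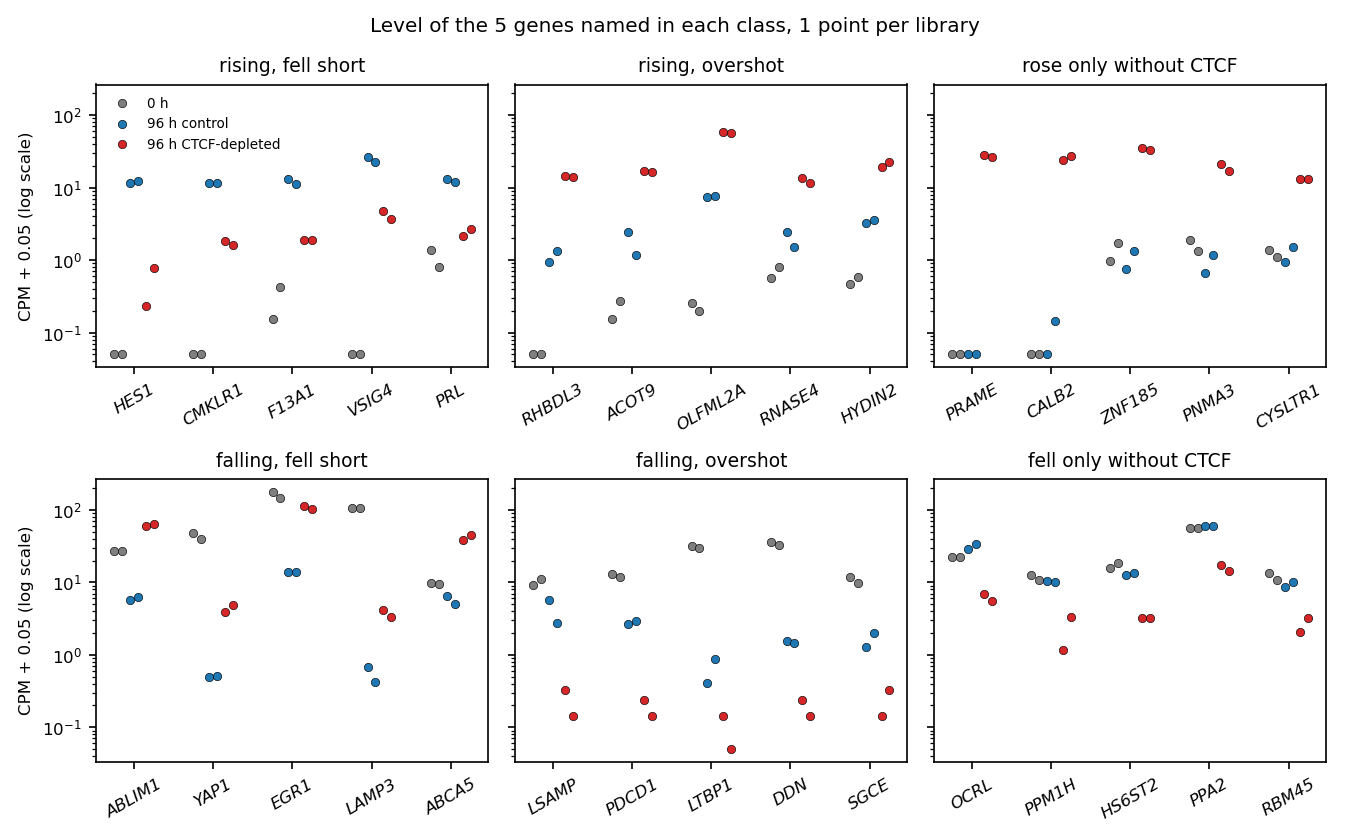
CPM (plus 0.05, log axis) of 5 genes from each of the 6 classes in every library, grouped as 0 h, 96 h control and 96 h CTCF-depleted. The genes were chosen so that the CTCF-depleted points are clear of both control points, for example *VSIG4* at 4.72 and 3.68 against 26.4 and 22.8 CPM.

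Of 28 tested macrophage surface receptors, 27 rose without CTCF and 27 in control, with a median log2 change from 0 h of 6.31 without CTCF and 6.41 in the control conversion (all tested genes 0.02 in both). Genes with a group at 0 entered these medians at their bound. Of the 28, 6 fell short and 3 overshot, where 12.4% of all genes were called between the 96 h groups. Uptake receptors were among those short. *CD36*, a scavenger receptor for lipids, had no count at 0 h, 45.5 and 49.0 CPM in control and 18.1 and 14.5 CPM without CTCF, at least 362-fold and 125-fold above 0 h. *MRC1*, the mannose receptor, had 0.309 and 0.375 CPM at 0 h, 35.5 and 34.8 in control and 14.0 and 14.0 without CTCF (-1.33, SE 0.12 between the 96 h groups). *TREM1*, an amplifying receptor of myeloid cells, had 27.8 and 25.4 CPM in control and 15.0 and 12.5 CPM without CTCF. Depleted libraries lay below control without overlap in all 3. The other short members were close to a threshold. *SIGLEC1* differed by -0.71, and by -0.53 (adjusted p = 0.0589) without control replicate 1. *CLEC7A* differed by -0.71, and by -0.53 (adjusted p = 0.00539) without CTCF-depleted replicate 2. *MSR1* differed by -0.61, and by -0.59 (adjusted p = 4.66e-09) with RLE scaling.

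*ITGAM*, the integrin chain CD11b of myeloid cells, overshot, with 0.619 and 0.45 CPM at 0 h, 120.2 and 136 in control and 289 and 280.0 without CTCF, a difference of 1.15 (SE 0.06). *CD86*, a costimulatory ligand, had 40.2 and 43.7 CPM in control and 75.7 and 75.1 CPM without CTCF. *CD33*, an inhibitory sialic acid receptor, had 9.71 and 8.71 CPM in control and 13.1 and 21.3 CPM without CTCF, and its difference of 0.90 was 0.54 (adjusted p = 0.0388) without CTCF-depleted replicate 2. The summed level of the list was 102 to 104 CPM at 0 h, 1503 to 1524 CPM in control and 1634 to 1640 CPM without CTCF. The higher sum without CTCF rested on *ITGAM* alone. Its mean went from 128 CPM in control to 285 CPM without CTCF, more than the whole sum gained. *ITGAX*, the integrin chain CD11c, and *CD163*, a haemoglobin scavenger receptor, had no count at 0 h and no call between the 96 h groups. Without CTCF *ITGAX* reached 138 and 129 CPM, and *CD163* reached 67.9 and 60.0 CPM.

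All 10 tested chemotactic receptors rose without CTCF (median 5.50 without CTCF and 6.09 in the control conversion). *CCR1*, a chemokine receptor, had 34.0 and 37.0 CPM in control and 45.2 and 51.2 CPM without CTCF, a difference of 0.44 under the fold threshold. *CX3CR1*, the fractalkine receptor, overshot from 6.44 and 6.39 to 10.7 and 10.8 CPM, with a difference of 0.74 that was 0.78 (adjusted p = 0.0122) without control replicate 1 and 0.77 (adjusted p = 0.0132) without control replicate 2.

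Of 16 tested Toll-like receptors and adaptors, which sense microbial molecules, 5 fell short and 1 overshot. Over all tested genes 11.4% were in a class. Of the 16, 9 rose without CTCF and 1, *TLR10*, fell (median 1.04 without CTCF and 1.29 in the control conversion). *TLR6*, which pairs with TLR2 on lipopeptides, had 1.86 and 2.03 CPM at 0 h, 31.1 and 28.8 in control and 8.24 and 5.25 without CTCF (-2.15, SE 0.15). *TLR1*, its overlapping neighbour on chromosome 4, had 8.36 and 10.1 CPM at 0 h, 31.3 and 30.8 in control and 12.1 and 8.57 without CTCF, so that its libraries without CTCF overlapped those at 0 h (adjusted p = 0.406). Because the gene bodies of *TLR1* and *TLR6* overlap and the strand setting of the counting is not given in the sources used here, reads of this pair may not be fully separated. *IRAK2*, a kinase downstream of these receptors, had 28.1 and 29.8 CPM in control and 14.6 and 13.8 CPM without CTCF. The difference of *TLR7*, a receptor for single-stranded RNA, was -0.72, and -0.60 (adjusted p = 0.000412) without CTCF-depleted replicate 1. For *TLR2* it was -0.84, -0.78 (adjusted p = 0.0126) without CTCF-depleted replicate 1 and -0.75 (adjusted p = 0.0299) without control replicate 1. *TLR5*, the flagellin receptor, overshot from 7.15 and 8.98 to 16.6 and 14.4 CPM. *TLR8* had 4.41 and 6.11 CPM in control and 7.87 and 7.46 CPM without CTCF with no call between them.

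In the phagocyte NADPH oxidase, 4 of 6 subunits rose without CTCF, 5 with RLE scaling (median 3.71 without CTCF and 3.51 in the control conversion). *CYBB*, the catalytic subunit, had 0.206 and 0.6 CPM at 0 h, 1177 and 1198 in control and 648 and 599.8 without CTCF, a difference of -0.93 (SE 0.05) between the 96 h groups. *NCF1*, a cytosolic partner, had 156 and 149.6 CPM in control and 182 and 155 CPM without CTCF, with no call between the 96 h groups.

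Lysosomal genes rose at 23 of 25 tested members without CTCF (median 1.61 without CTCF and 1.88 in the control conversion). Of the 25, 4 were short, 1 over and 1 rose without CTCF but was not called in control (11.4% of all tested genes were in a class). *LIPA*, lysosomal acid lipase, had 31.0 and 32.7 CPM at 0 h, 199 and 199 in control and 98.0 and 90.6 without CTCF (-1.07, SE 0.06). *CTSB*, cathepsin B, had 1234 and 1260.5 CPM in control and 797 and 782 CPM without CTCF. *LGMN*, the protease legumain, had 44.4 and 46.0 CPM in control and 22.3 and 25.9 CPM without CTCF. *NPC1*, which exports cholesterol from lysosomes, was instead at 54.9 and 53.6 CPM at 0 h, 70.4 and 66.1 in control and 124 and 117 without CTCF. Groups did not overlap in any of these 4 genes. *CTSH*, cathepsin H (-0.69), and *FUCA1*, a fucosidase (0.64), lay near the threshold. Without CTCF-depleted replicate 2 *CTSH* was at -0.54 (adjusted p = 1.21e-07), and without CTCF-depleted replicate 1 *FUCA1* was at 0.60 (adjusted p = 0.000104). *CTSD* and *PSAP*, cathepsin D and the saposin precursor, had differences of 0.14 and -0.06. *CTSL* was listed at 0 in every library.

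Myeloid transcription factors rose at 18 of 21 members in both conversions (median 4.23 without CTCF and 4.45 in the control conversion). Of the 21, 8 were in a class, as were 11.4% of all tested genes. *CEBPD*, a C/EBP factor of myeloid cells, had 0.103 and 0.225 CPM at 0 h, 38.3 and 38.8 in control and 13.7 and 12.4 without CTCF (-1.56, SE 0.12). *BHLHE40*, a basic helix-loop-helix repressor, had 0.928 and 1.35 CPM at 0 h, 190.2 and 189.8 in control and 79.4 and 72.9 without CTCF (-1.32, SE 0.07). *IRF8*, a factor of monocyte and dendritic cell development, had 15.2 and 10.8 CPM at 0 h, 356 and 342 in control and 169 and 167 without CTCF (-1.06, SE 0.05). These 3 stopped short, with libraries without CTCF between the other groups. *NR1H3*, the nuclear receptor LXRα, overshot, with 7.77 and 7.50 CPM in control and 15.9 and 15.3 CPM without CTCF. *KLF6* had 89.3 and 92.4 CPM in control and 169 and 157 CPM without CTCF and overshot too. So did *TFEC*, a relative of MITF, and the zinc finger gene *EGR2*. *TFEC* had 24.7 and 26.8 CPM in control and 52.2 and 63.0 CPM without CTCF. *EGR2* had 5.12 and 4.35 CPM in control and 19.1 and 15.9 CPM without CTCF. *SPI1*, which encodes PU.1, had means of 43.0 CPM at 0 h, 319 CPM in control and 267 CPM without CTCF.

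Among rising genes that overshot, the same rule named *RHBDL3* (chromosome 17, 32265832 to 32324659), a rhomboid-like membrane protein, with no count at 0 h. It had 0.883 and 1.30 CPM in control and 14.5 and 14.1 CPM without CTCF, at least 8.33-fold and 109.9-fold above 0 h. *OLFML2A*, a secreted olfactomedin-like protein, had 0.206 and 0.15 CPM at 0 h, 7.33 and 7.59 in control and 58.8 and 56.9 without CTCF (2.95, SE 0.12). *ACOT9*, a mitochondrial acyl-CoA thioesterase, had 0.103 and 0.225 CPM at 0 h, 2.38 and 1.11 in control and 17.04 and 16.6 without CTCF (3.25, SE 0.23). The control libraries of all 3 lay nearer to 0 h than to the CTCF-depleted libraries in CPM. *RNASE4*, a secreted ribonuclease whose gene overlaps *ANG*, had 2.38 and 1.48 CPM in control and 13.5 and 11.7 CPM without CTCF. The gene *HYDIN2* is a near-identical copy of the cilia gene *HYDIN*, with which it may share reads. It had 3.18 and 3.52 CPM in control and 19.4 and 22.4 CPM without CTCF.

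Of 9 tested complement genes, 7 rose without CTCF (median 6.02 without CTCF and 5.70 in the control conversion). Of the 9, 4 overshot and 1 fell short, where 11.4% of all tested genes were in a class. The summed level was 9.30 to 9.59 CPM at 0 h, 226 to 229 CPM in control and 360 to 405 CPM without CTCF. *CFD*, complement factor D, had 38.7 and 34.0 CPM in control and 65.6 and 68.7 CPM without CTCF. *CFP*, properdin, had 32.9 and 31.4 CPM in control and 60.2 and 63.9 CPM without CTCF. *C3*, the central component, had 84.2 and 88.6 CPM in control and 169 and 124 CPM without CTCF, a difference of 0.76 that was 0.56 (adjusted p = 3.42e-09) without CTCF-depleted replicate 1. These 3 belong to the alternative pathway and were higher in both CTCF-depleted libraries than in both control libraries. *C1QC*, a chain of C1q of the classical pathway, had 8.03 and 8.24 CPM in control and 5.46 and 4.61 CPM without CTCF. That difference (-0.69) was not called without any 1 of the 4 libraries at 96 h, with adjusted p from 0.0253 to 0.128.

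All 10 tested inflammatory cytokines and chemokines rose in both conversions (median 4.41 without CTCF and 4.40 in the control conversion). Of the 10, 3 overshot and 2 fell short, where 11.4% of all tested genes were in a class. *IL1B*, interleukin-1β, had 2.99 and 1.80 CPM at 0 h, 30.2 and 28.4 in control and 79.4 and 79.0 without CTCF (1.43, SE 0.08). *TNF*, tumour necrosis factor, had 2.99 and 3.83 CPM at 0 h, 7.06 and 8.80 in control and 16.2 and 17.2 without CTCF (1.08, SE 0.16). *CCL3*, a chemokine of macrophages with close copies in the genome, had 9.18 and 8.24 CPM in control and 16.9 and 15.9 CPM without CTCF. *OSM*, oncostatin M, was lower, at 10.4 and 7.28 against 21.2 and 21.9 CPM (-1.29, SE 0.16). *CXCL16* had 4.85 and 5.19 CPM in control and 2.04 and 2.21 CPM without CTCF, a difference of -1.24. It was -1.16 (adjusted p = 0.0201) without control replicate 2, -1.25 (adjusted p = 0.0114) without control replicate 1 and -1.14 (adjusted p = 0.0167) without CTCF-depleted replicate 1. *IL1RN*, the antagonist of interleukin-1, had 136 and 139 CPM in control and 114 and 104 CPM without CTCF with a difference of -0.33, under the fold threshold.

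MHC class II genes rose at 10 of 12 members without CTCF and at 8 of 12 in control (median 1.46 without CTCF and 1.17 in the control conversion), and 10 of the 12 had both CTCF-depleted libraries above both control libraries, as had 30.1% of all tested genes (67.9% lay beyond them in either direction). *HLA-DRB1* had 16.2 and 19.3 CPM in control and 25.6 and 23.9 CPM without CTCF, a difference of 0.48 under the fold threshold. *HLA-DMA*, a chain of the peptide loading factor, had 28.8 and 28.3 CPM in control and 41.8 and 45.5 CPM without CTCF. Each of the 3 members called between the 96 h groups lost its call in at least 1 fit with a library left out. The difference of *HLA-DMA* (0.61) was 0.58 (adjusted p = 6.08e-05) without CTCF-depleted replicate 2. That of *HLA-DMB* (0.61) was 0.54 (adjusted p = 0.0708) in the same setting, 0.61 (adjusted p = 0.0559) without control replicate 1 and 0.67 (adjusted p = 0.036) without control replicate 2. *HLA-DQA1* (0.99) lost its call without any 1 of the 4 libraries at 96 h (adjusted p from 0.0196 to 0.0539). *CIITA*, the transactivator of these genes, had means of 89.8 CPM at 0 h, 183 CPM in control and 156 CPM without CTCF.

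Granule proteins of myeloid progenitors all rose (11 of 11, median 7.75 without CTCF and 7.81 in the control conversion). *S100A9*, a calcium-binding protein of neutrophils and monocytes, had no count at 0 h, 3226 and 3055 CPM in control and 2359.8 and 2149 CPM without CTCF. That difference of -0.48 (SE 0.05, edgeR adjusted p = 4.9e-12) stayed under the fold threshold. Its partner *S100A8* had 778 and 734 CPM in control and 611 and 535 CPM without CTCF. The summed level of the list, which also holds *LYZ*, was 1.03 to 1.80 CPM at 0 h, 8320 to 8805 CPM in control and 6948 to 7258 CPM without CTCF. This sum was mainly set by *LYZ*, *S100A9* and *S100A8*, with means in control of 4527, 3140 and 756 CPM. *MPO* and *AZU1* had means in control of 8.41 and 12.3 CPM. *MPO*, myeloperoxidase, and *RNASE3* were called short (-0.70 and -1.49), and both lost the call without any 1 of the 4 libraries at 96 h (adjusted p from 0.0193 to 0.121 and from 0.0383 to 0.0894).

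Falling genes that stopped short kept part of the B cell level. *YAP1* (chromosome 11, 102110447 to 102233424), a coactivator of the Hippo pathway, had 48.2 and 40.2 CPM at 0 h, 0.441 and 0.463 in control and 3.89 and 4.79 without CTCF. Its log2 change was -3.34 (SE 0.15, edgeR adjusted p = 2.99e-28) without CTCF and -6.57 (SE 0.23) in control. *LAMP3*, a lysosomal membrane protein of mature dendritic cells, had 105 and 105 CPM at 0 h, 0.618 and 0.37 in control and 4.17 and 3.32 without CTCF. Both genes remained well below their 0 h level without CTCF. *EGR1*, an immediate early zinc finger factor, had 176 and 145 CPM at 0 h, 13.9 and 13.8 in control and 112 and 104 without CTCF. Its change from 0 h was -0.57 (SE 0.07) without CTCF, under the fold threshold, and -3.53 (SE 0.09) with CTCF. *ABLIM1*, an actin-binding LIM protein, and *ABCA5*, a lipid transporter, ended above 0 h and are described with the genes that turned round. The B cell surface antigen *CD22*, an inhibitory sialic acid receptor, had 185 and 179 CPM at 0 h, 32.5 and 37.1 in control and 97.9 and 95.3 without CTCF (1.47, SE 0.07). Both CTCF-depleted libraries lay between the other groups.

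Among 14 tested B cell surface antigens, 11 fell and 2 rose without CTCF (median -1.75 without CTCF and -2.37 in the control conversion). *TNFRSF13C*, the BAFF receptor, overshot from 3.001 and 2.04 CPM in control to 0.833 and 1.11 CPM without CTCF. Its difference of -1.37 was -1.15 (adjusted p = 0.0296) without CTCF-depleted replicate 1 and -1.03 (adjusted p = 0.0741) without control replicate 1. *CXCR4*, a chemokine receptor kept by many leukocytes, rose in control from 132 and 129 to 239 and 236 CPM and stood at 133 and 141 CPM without CTCF (edgeR adjusted p = 0.226 against 0 h). *CD37*, a tetraspanin, and *CD40*, a receptor shared by B cells and macrophages, are listed as B cell antigens but rose in both conversions. *CD37* had 18.6 and 15.1 CPM in control and 34.4 and 31.7 CPM without CTCF. *CD40* had 15.9 and 13.9 CPM in control and 27.1 and 24.5 CPM without CTCF.

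B cell transcription factors fell at 11 of 13 members in both conversions (median -2.10 without CTCF and -2.11 in the control conversion). *PAX5* had 89.1 and 93.1 CPM in control and 82.9 and 87.3 CPM without CTCF. *EBF1* had 104 and 110.2 CPM in control and 105 and 106 CPM without CTCF. *LEF1* had 105 and 113 CPM in control and 95.3 and 99.9 CPM without CTCF; none of the 3 was called between the 96 h groups. *POU2AF1*, a coactivator of octamer factors, ended at 6.30 and 5.90 against 10.6 and 8.80 CPM, a difference of -0.67 that was -0.59 (adjusted p = 0.0103) without CTCF-depleted replicate 2 and -0.50 (adjusted p = 0.0677) without control replicate 1. *AFF3*, a nuclear factor of the lymphoid lineage, rose instead of falling, from 32.3 and 36.4 to 145 and 144 CPM in control and to 73.5 and 73.7 CPM without CTCF (-0.98, SE 0.07).

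Of the pre-B receptor and its signalling, 9 of 15 members fell without CTCF and 11 in control (median -0.91 without CTCF and -1.14 in the control conversion). *VPREB1*, a surrogate light chain, overshot from 151 and 135 CPM at 0 h and 12.97 and 11.2 CPM in control to 6.76 and 6.26 CPM without CTCF (-0.89, SE 0.15). *IGLL5*, which shares sequence with the surrogate light chain gene *IGLL1*, had 119 and 105 CPM at 0 h, 2.91 and 2.96 in control and 0.37 and 0.737 without CTCF. For *IGLL1* the difference of -1.18 was -0.91 (adjusted p = 0.0554) without CTCF-depleted replicate 1 and -1.001 (adjusted p = 0.0395) without control replicate 2. *VPREB3* was higher without CTCF (1.34), a call lost without CTCF-depleted replicate 1 (1.28, adjusted p = 0.0226), control replicate 1 (1.51, adjusted p = 0.0221) and control replicate 2 (1.26, adjusted p = 0.0462). *BANK1*, a B cell scaffold, had 5.67 and 6.68 CPM at 0 h, 1.41 and 1.30 in control and 3.80 and 4.15 without CTCF. In V(D)J recombination 5 of 8 members fell without CTCF and 6 in control (median -1.13 without CTCF and -0.88 in the control conversion). *RAG2* had 166 and 164 CPM at 0 h, 1.94 and 1.204 in control and 0.926 and 1.198 without CTCF, with no call between the 96 h groups. The place of *XRCC4* among the rising genes that fell short (-0.61) was lost with RLE scaling (-0.59, adjusted p = 0.000602).

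Falling genes that overshot included several that were nearly extinguished. *LSAMP* (chromosome 3, 115802374 to 117139389), an adhesion molecule of the IgLON family, had 89 and 146 counts at 0 h (9.18 and 11.0 CPM), 65 and 29 counts in control (5.74 and 2.69 CPM) and 3 and 1 counts without CTCF. *PDCD1*, the inhibitory receptor PD-1, had 13.1 and 11.8 CPM at 0 h, 2.65 and 2.87 in control and 0.185 and 0.0921 without CTCF. The 0 h level was 89.0 (95% counting interval 30.2 to 434) times that of the CTCF-depleted libraries, and the control level 19.9 (95% counting interval 6.495 to 99.2) times. *DDN*, dendrin, had 35.9 and 32.7 CPM at 0 h, 1.5004 and 1.39 in control and 0.185 and 0.0921 without CTCF, and its control level was 10.4 (95% counting interval 3.27 to 53.3) times that of the CTCF-depleted libraries. No CTCF-depleted library held more than 3 counts of these 3 genes, so that the ratios have wide counting intervals. *LTBP1*, which binds latent TGF-β, had 31.5 and 29.3 CPM at 0 h, 0.353 and 0.833 in control and 0.0926 and 0 without CTCF. The difference between the 96 h groups was not called in DESeq2 (adjusted p = 0.0619) or without CTCF-depleted replicate 2 (adjusted p = 0.0728) or control replicate 2 (adjusted p = 0.127). *SGCE*, ε-sarcoglycan, had 11.8 and 9.83 CPM at 0 h, 1.24 and 1.94 in control and 0.0926 and 0.276 without CTCF, and without control replicate 2 its difference was -2.64 (adjusted p = 0.0112).

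The cell cycle lists were lower still without CTCF. All 16 S phase genes fell without CTCF, against 15 in control (median -1.81 without CTCF and -1.27 in the control conversion). The summed level went from 3482 to 3633 CPM at 0 h to 1467 to 1494 CPM in control and 1022 to 1036 CPM without CTCF. All 16 had both CTCF-depleted libraries below both control libraries, where 37.8% of all tested genes had, with differences from -0.24 to -0.88. Of the 16, 6 passed both thresholds between the 96 h groups, as did 7.03% of all tested genes in this direction. *MCM2*, a helicase subunit, had 278 and 261 CPM at 0 h, 87.6 and 84.1 in control and 51.8 and 51.0 without CTCF (-0.74, SE 0.07). *CDC45*, which activates the helicase, had 73.8 and 68.8 CPM at 0 h, 22.9 and 26.9 in control and 13.1 and 14.0 without CTCF (-0.88, SE 0.11). *MCM7* and *POLA1*, a subunit of the priming polymerase, differed by -0.68 and -0.70. The differences of *GINS2* (-0.72) and *CDT1* (-0.68) were not called in some fits. *GINS2* was -0.49 (adjusted p = 0.0206) without CTCF-depleted replicate 1 and -0.46 (adjusted p = 0.0724) without control replicate 1, and *CDT1* -0.51 (adjusted p = 4.88e-05) without CTCF-depleted replicate 2.

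All 16 G2 and M phase genes fell without CTCF and 14 in control (median -1.50 without CTCF and -0.79 in the control conversion). Of the 16, 14 were in a class, 13 as falling genes that overshot, where 11.4% of all tested genes were in a class. The summed level was 4051 to 4125 CPM at 0 h, 2569 to 2674 CPM in control and 1595 to 1616 CPM without CTCF. *TOP2A*, topoisomerase IIα, had 465 and 467 CPM at 0 h, 296 and 299.7 in control and 175 and 172 without CTCF (-0.78, SE 0.05). *CENPE*, a kinetochore motor, had 209.9 and 229 CPM at 0 h, 131 and 147 in control and 78.6 and 77.5 without CTCF (-0.83, SE 0.06). The genes *CENPF*, *CDC20*, *CDK1* and *BUB1B*, of the kinetochore and the mitotic checkpoint and engine, differed by -0.82, -0.78, -0.73 and -0.75. *MKI67*, the proliferation antigen Ki-67, was not called in control, where it changed by -0.22 (SE 0.05), and fell without CTCF. It had 1034 and 1059 CPM at 0 h, 869 and 930.2 in control and 552 and 552 without CTCF (-0.92, SE 0.05, edgeR adjusted p = 8.28e-26 without CTCF). Depleted and control libraries did not overlap in any of the 16 genes, nor in 67.9% of all tested genes. The called members nearest the fold threshold, *CCNB1* (-0.61), *NUSAP1* (-0.62), *KIF11* (-0.64) and *TPX2* (-0.64), lost the call in some of the fits with a library left out. Without CTCF-depleted replicate 2, *CCNB1* was -0.49 (adjusted p = 9.1e-05) and *TPX2* -0.58 (adjusted p = 3.29e-12). Without control replicate 2, *NUSAP1* was -0.58 (adjusted p = 7.67e-07) and *KIF11* -0.57 (adjusted p = 7.02e-07).

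The clustered histone genes, whose transcripts supply the histones for newly replicated DNA, were looked at after their values had been seen. Of 52 tested, 32 were falling genes that overshot, 11 fell without CTCF but were not called in control and 1 was a rising gene that fell short. Over all tested genes 11.4% were in a class. The median log2 change from 0 h was -1.72 without CTCF and -0.73 in the control conversion. *HIST1H1B*, a linker histone, had 1129 and 1179.5 CPM at 0 h, 663 and 665 in control and 356 and 353 without CTCF (-0.90, SE 0.05 between the 96 h groups). *HIST1H3B*, a core histone H3, had 528 and 520.1 CPM at 0 h, 344 and 337 in control and 165 and 158 without CTCF (-1.08, SE 0.05). These genes have near-identical copies, so that reads may not be fully separated among them.

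**Figure D3:**
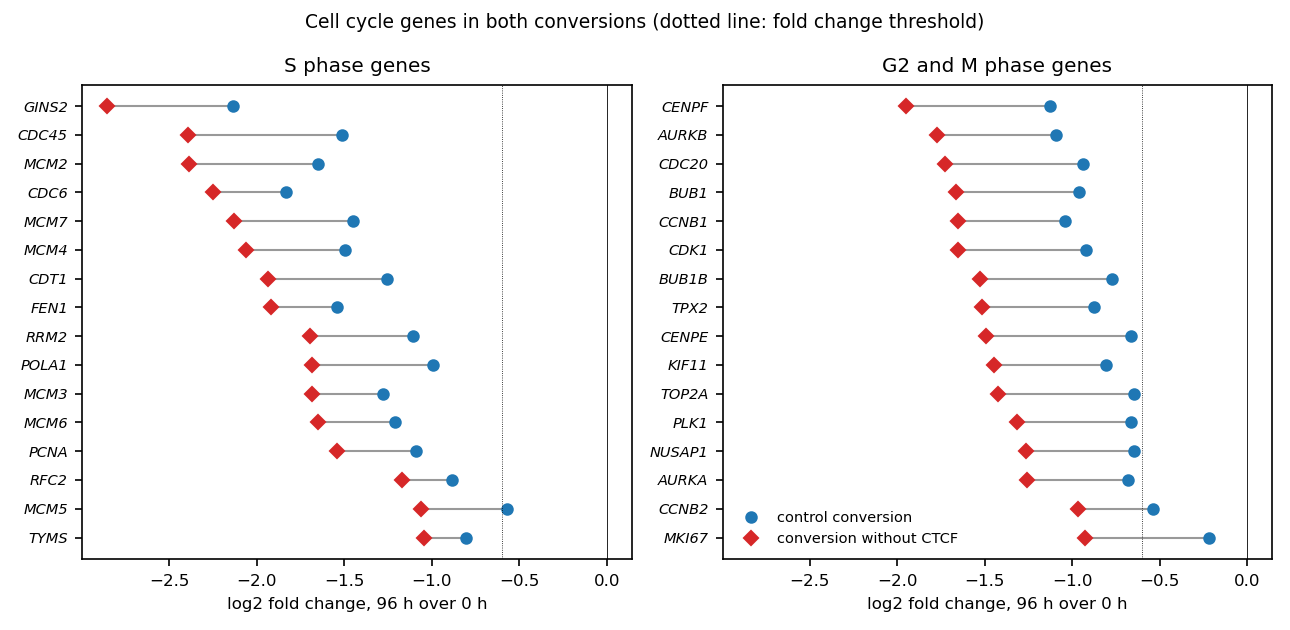
Log2 fold change from 0 h to 96 h of 16 S phase and 16 G2 and M phase genes in the conversion with CTCF and the conversion without CTCF; the dotted line marks the fold threshold of -0.6. Every gene lies lower without CTCF than with it, and all 32 lie below the line without CTCF.

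Genes that rose without CTCF but were not called in the control conversion included *PRAME* and *CALB2*, with at most 1 count in any library of the other groups. *PRAME* (chromosome 22, 22547701 to 22559361), a cancer-testis antigen, had 0 and 0 counts at 0 h, 0 and 0 in control and 307 and 289 without CTCF (28.4 and 26.6 CPM). That was at least 211-fold above 0 h and at least 203-fold above control. *CALB2*, calretinin, had 0 and 0 counts at 0 h, 0 and 1 in control and 255 and 300 without CTCF (23.6 and 27.6 CPM), at least 197-fold over 0 h. A count of 0 in both libraries of a group allows up to 0.130 CPM at 0 h and 0.136 CPM in control, counting error only. *ZNF185* (chromosome X, 152898067 to 152973481), an actin-associated LIM protein, had 0.928 and 1.65 CPM at 0 h, 0.706 and 1.30 in control and 35.6 and 32.5 without CTCF (4.65, SE 0.20, edgeR adjusted p = 9.09e-29 from 0 h). Its neighbour on the X chromosome, *PNMA3*, had 1.86 and 1.28 CPM at 0 h, 0.618 and 1.11 in control and 21.0 and 16.95 without CTCF (3.63, SE 0.23, edgeR adjusted p = 2.46e-21). *CYSLTR1*, a leukotriene receptor, had 1.34 and 1.05 CPM at 0 h, 0.883 and 1.48 in control and 13.1 and 13.2 without CTCF (3.47, SE 0.26, edgeR adjusted p = 2.72e-18). In the last 3 the 0 h and control libraries overlapped or nearly met, and the CTCF-depleted libraries stood apart.

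*STAG1*, a subunit of cohesin, was in this class too. It had 143 and 149 CPM at 0 h, 117 and 123 in control and 260.2 and 272 without CTCF, a rise of 0.87 (SE 0.05, edgeR adjusted p = 1.81e-22) where control changed by -0.28 (SE 0.05). The other tested cohesin genes were not in a class. Over the whole list, *STAG1* included, 2 of 14 rose and 5 fell without CTCF, where 27.2% of all tested genes rose and 25.2% fell. The median log2 change was -0.17 without CTCF and 0.01 in the control conversion. The alternative subunit *STAG2* had means of 342 CPM at 0 h, 434 in control and 405 without CTCF. The ring subunit *RAD21* had means of 757, 779 and 671 CPM in these groups, and *SMC3* of 203, 133 and 106 CPM. *ESCO2* and *CDCA5*, which act with cohesin in S phase, fell, with log2 changes from 0 h of -1.82 and -1.76. *FOSL1*, an AP-1 subunit, had 4.33 and 3.98 CPM at 0 h, 5.82 and 5.56 in control and 20.0 and 19.3 without CTCF (2.25, SE 0.17, edgeR adjusted p = 1.06e-17). *APOE*, apolipoprotein E, had 0.309 and 0.3 CPM at 0 h, 0.353 and 1.39 in control and 4.63 and 3.96 without CTCF, with few counts and control replicates that differed from each other. Without control replicate 1 it left the class, while the rise from 0 h and the difference at 96 h held in every fit with a library left out.

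Not being called in control does not make a gene flat there. Of the 243 genes that rose only without CTCF, 174 had an unadjusted p of at least 0.05 in the control conversion, 83 had an absolute log2 change under 0.2 and 73 one over 0.5. Of the 246 that fell, 101 had an unadjusted p of at least 0.05, 73 a change under 0.2 and 61 one over 0.5. For the falls, the same rule on size, level and symbol named *PPA2*, *OCRL*, *HS6ST2*, *PPM1H* and *RBM45*. *PPA2* (chromosome 4, 105369077 to 105474067), a mitochondrial pyrophosphatase, had 55.7 and 55.6 CPM at 0 h, 59.1 and 59.5 in control and 17.4 and 14.5 without CTCF (-1.80, SE 0.09, edgeR adjusted p = 4.68e-25). *OCRL*, an inositol polyphosphate 5-phosphatase, had 22.3 and 22.3 CPM at 0 h, 29.0 and 34.1 in control and 6.85 and 5.44 without CTCF (-1.86, SE 0.15, edgeR adjusted p = 2.43e-17). *HS6ST2*, a heparan sulfate 6-O-sulfotransferase, had 15.6 and 18.5 CPM at 0 h, 12.6 and 13.3 in control and 3.15 and 3.13 without CTCF (-2.44, SE 0.19, edgeR adjusted p = 7.24e-18). In each the CTCF-depleted libraries lay under all 4 others. *PPM1H*, a protein phosphatase, had 1.11 and 3.32 CPM without CTCF, a log2 change of -2.38 (SE 0.24, edgeR adjusted p = 3.31e-13). *RBM45*, an RNA-binding protein, had 2.04 and 3.13 CPM, a change of -2.21 (SE 0.22, edgeR adjusted p = 1.56e-13).

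Cholesterol genes gave members to 3 classes. Without CTCF 6 of 15 rose and 4 fell, where 27.2% of all tested genes rose and 25.2% fell. The 6 called in control all rose (median -0.12 without CTCF and 0.32 in the control conversion). Of the 15, 5 were in a class, where 11.4% of all tested genes were. *INSIG1*, which holds back sterol-regulated transcription, had 104 and 90.2 CPM at 0 h, 112 and 108 in control and 60.6 and 59.9 without CTCF. Its change of -0.68 was -0.56 (adjusted p = 1.51e-08) without 0 h replicate 1, under the fold threshold. *DHCR7*, the last enzyme of a cholesterol synthesis route, had 34.7 and 35.7 CPM in control and 25.1 and 19.1 CPM without CTCF (-0.67; -0.46, adjusted p = 0.001 without CTCF-depleted replicate 2). *ABCA1*, the cholesterol exporter, rose in control from 348 and 372 to 657 and 664 CPM and had 417 and 403 CPM without CTCF, a change of 0.19 (SE 0.05) from 0 h that was under the fold threshold. *MYLIP*, a ligase that targets lipoprotein receptors, had 44.4 and 39.7 CPM at 0 h, 157 and 149 in control and 68.1 and 71.9 without CTCF. The summed level of the list was 1632 to 1701 CPM at 0 h, 2277 to 2311 CPM in control and 1595 to 1616 CPM without CTCF, so that the CTCF-depleted libraries stood next to 0 h.

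Immediate early genes, which answer growth factor and stress signals, were split. Of 23 tested, 13 rose and 4 fell without CTCF and 15 rose and 6 fell in control (median 1.66 without CTCF and 1.22 in the control conversion). The shares of all tested genes were 27.2% and 25.2% without CTCF and 25.4% and 22.9% in control. Of the 23, 7 were in a class, where 11.4% of all tested genes were. Beside *EGR1*, *EGR2* and *FOSL1*, the list holds *SPRY2*. This feedback inhibitor of receptor signalling had 47.6 and 43.2 CPM at 0 h, 24.6 and 17.6 in control and 67.9 and 68.5 without CTCF (1.69, SE 0.09). *JUN* had 16.2 and 18.5 CPM at 0 h, 113 and 111 in control and 191 and 181 without CTCF (0.74, SE 0.06) and overshot. Its relative *JUNB* had 29.6 and 30.2 CPM at 0 h, 188 and 199.8 in control and 98.6 and 90.6 without CTCF (-1.04, SE 0.06) and fell short. *FOS* had 138 and 151 CPM in control and 154 and 139 CPM without CTCF. *ATF3* had 11.5 and 7.69 CPM in control and 15.8 and 16.3 CPM without CTCF, a difference of 0.74 that was 0.52 (adjusted p = 0.0294) without control replicate 2.

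p53 targets rose at 11 of 15 members without CTCF and 14 in control (median 1.32 without CTCF and 1.33 in the control conversion). The shares of all tested genes that rose were 27.2% and 25.4%. Of the 15, 3 were in a class, where 11.4% of all tested genes were. *CDKN1A*, the inhibitor p21, had 119.5 and 104 CPM at 0 h, 315 and 326 in control and 187 and 192 without CTCF (-0.76, SE 0.05), and of the 3 class members of this list it alone kept its class in every fit with a library left out. *BBC3* (-0.63) was -0.49 (adjusted p = 0.00593) without CTCF-depleted replicate 1 and -0.49 (adjusted p = 0.00875) without control replicate 1, and came to -0.60 without either 0 h replicate. *TP53I3* (-0.93) lost its call without any 1 of the 4 libraries at 96 h (adjusted p from 0.0149 to 0.226). *FAS* and *SESN1* differed by 0.49 and -0.07 between the 96 h groups, without a call. Of 18 interferon-stimulated genes, 11 rose and 3 fell in both conversions (median 0.89 without CTCF and 0.78 in the control conversion). None was in a class (11.4% of all tested genes were), although *MX2* (0.63) was called between the 96 h groups. *OAS1*, an RNA sensor, had 30.8 and 30.9 CPM in control and 21.1 and 21.6 CPM without CTCF. *IFIT2* had 6.35 and 8.33 CPM in control and 10.5 and 10.8 CPM without CTCF. Auxin and its products can act on the aryl hydrocarbon receptor, and 3 of its 10 listed target genes could be tested (median 1.51 without CTCF and 1.04 in the control conversion). *TIPARP* had 19.1 and 19.7 CPM at 0 h, 36.9 and 39.1 in control and 57.1 and 53.7 without CTCF, a difference of 0.55 under the fold threshold. *NQO1* had 5.56 and 4.82 CPM in control and 6.11 and 6.63 CPM without CTCF. *CYP1A1* had means of 0.333, 0.139 and 0.0463 CPM, while *AHR* itself, *CYP1B1*, *CYP1A2* and *UGT1A6* were listed at 0 in every library.

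**Figure D4:**
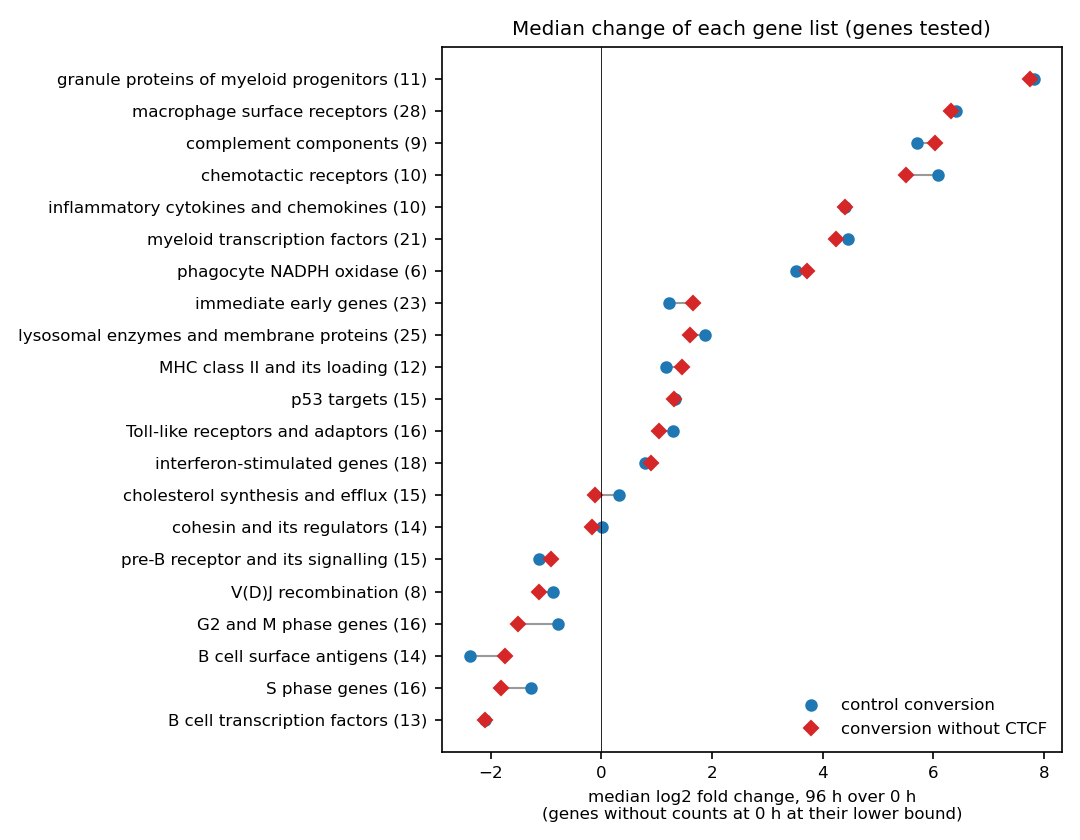
Median log2 fold change from 0 h to 96 h of the tested genes of 21 lists with at least 6 tested genes, in the conversion with CTCF and without CTCF, with genes that have no counts in a group entered at their bound. The medians without and with CTCF are 6.31 and 6.41 for surface receptors and 5.50 and 6.09 for chemotactic receptors. Both cell cycle lists lie lower without CTCF, as do some other lists, such as the cholesterol genes (-0.12 and 0.32). B cell surface antigens lie higher without CTCF (-1.75 and -2.37).

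Few markers of other cells had enough counts to be tested, but not all of these lists were near 0. At 0 h the plasmacytoid dendritic cell markers summed to 371 to 391 CPM and the stromal and epithelial markers to 254 to 260 CPM. These sums are not broken down by member here. T and NK cell markers had 2 of 12 members tested, *CD2* and *NKG7*, which both rose in both conversions (median 4.33 without CTCF and 4.22 in the control conversion). Their summed level was 3.45 to 3.92 CPM at 0 h, 38.6 to 39.5 in control and 33.1 to 35.4 without CTCF. *CD3D*, *CD3G*, *CD8B* and *CD5* were at 0 in every library. Erythroid and megakaryocyte markers had 4 of 13 tested, of which 3 rose and 1 fell without CTCF (median 2.09 without CTCF and 2.49 in the control conversion). The globins *HBB*, *HBA1* and *HBA2* were at 0 in every library, and the summed level was 3.98 to 6.09 CPM at 0 h, 34.0 to 34.6 in control and 31.4 to 34.4 without CTCF. The erythropoietin receptor *EPOR* was short (-0.99), a call lost without control replicate 1 (-0.88, adjusted p = 0.0226) or CTCF-depleted replicate 2 (-0.77, adjusted p = 0.0297). Of the plasmacytoid dendritic cell markers 4 of 7 were tested, with 3 higher and 1 lower (median 2.20 without CTCF and 3.01 in the control conversion; summed level 371 to 391, 327 to 343 and 285 to 302 CPM). *NRP1*, a semaphorin receptor, fell short at 20.6 and 24.8 CPM against 63.2 and 63.3 CPM in control. Of the stromal and epithelial markers 4 of 12 were tested, with 1 higher and 2 lower (median -0.14 without CTCF and 0.95 in the control conversion; summed level 254 to 260, 155 to 156 and 133 to 139 CPM). *EPCAM*, *CDH1*, *COL3A1* and *DCN* were at 0 in every library. *VWF*, von Willebrand factor, was short (-1.97), a call lost without control replicate 1 (-1.69, adjusted p = 0.0269) or CTCF-depleted replicate 2 (-1.68, adjusted p = 0.0193).

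For 19 genes the direction itself turned: 13 rose without CTCF and fell in control, and 6 did the reverse, with all 3 comparisons called. *WEE2-AS1*, an antisense transcript, had 1.96 and 1.35 CPM at 0 h, 0.441 and 0.0926 in control and 10.6 and 10.5 without CTCF, changes of 2.71 (SE 0.26) without and -2.52 (SE 0.56) with CTCF. *ABLIM1* (chromosome 10, 114431112 to 114768061) had 27.0 and 27.4 CPM at 0 h, 5.65 and 6.30 in control and 59.9 and 63.0 without CTCF, changes of 1.17 (SE 0.08) without and -2.19 (SE 0.13) with CTCF. *ABCA5* had 9.70 and 9.53 CPM at 0 h, 6.44 and 5.00 in control and 38.9 and 45.1 without CTCF, changes of 2.13 (SE 0.12) without and -0.74 (SE 0.17) with CTCF. In all 3 the control libraries were lowest and the CTCF-depleted libraries highest, with 0 h between them and no overlap. *AHI1*, a ciliary protein, had 50.4 and 50.9 CPM at 0 h, 27.7 and 28.7 in control and 105 and 112 without CTCF, while its neighbour *MYB*, a factor of blood progenitors, fell in both conversions (-0.85 without and -0.79 with CTCF). *KIAA1279*, now named *KIFBP*, a kinesin-binding protein, had 15.3 and 14.7 CPM at 0 h, 9.002 and 6.02 in control and 41.9 and 41.9 without CTCF. *ARRDC4*, an arrestin domain protein, had 18.1 and 15.0 CPM at 0 h, 9.71 and 9.17 in control and 27.5 and 31.8 without CTCF.

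In the reverse group, *SETBP1* (chromosome 18, 44680173 to 45068510), which binds the SET oncoprotein, had 30.3 and 28.7 CPM at 0 h, 53.5 and 57.2 in control and 13.1 and 12.5 without CTCF, changes of -1.20 (SE 0.11) without and 0.91 (SE 0.08) with CTCF. *MDGA2*, a membrane anchor protein, had 14.6 and 14.6 CPM at 0 h, 28.1 and 25.9 in control and 8.52 and 10.0 without CTCF. *RUFY2* had 20.4 and 20.4 CPM at 0 h, 31.9 and 33.2 in control and 12.4 and 12.7 without CTCF. *COBLL1* had 10.3 and 11.8 CPM at 0 h, 20.7 and 20.5 in control and 6.48 and 7.09 without CTCF. Here the control libraries were highest and the CTCF-depleted libraries lowest. The fall of *MDGA2* was -0.54 (adjusted p = 0.00521) without CTCF-depleted replicate 1, under the fold threshold. Several of the 19 had changes from 0 h near the threshold that were lost when 1 library was left out. Without CTCF-depleted replicate 2, *APCDD1* (0.72) was 0.79 (adjusted p = 0.0168), *HCN3* (1.00) 0.79 (adjusted p = 0.0577) and *SLC25A45* (0.71) 0.65 (adjusted p = 0.0123). In the same setting *LOC100505650* (-0.87) was -0.64 (adjusted p = 0.0258) and *GTF2IRD2B*, which has near-identical copies (-0.72), -0.46 (adjusted p = 0.139). In DESeq2 the change from 0 h was not called for *APCDD1* (adjusted p = 0.119), *HCN3* (adjusted p = 0.0658), *GTF2IRD2B* (adjusted p = 0.0598), *SLC25A45* (adjusted p = 0.0378), *GDPD1* (adjusted p = 0.0157) and *LOC100505650* (adjusted p = 0.0108). Without 0 h replicate 2, *APCDD1* was 0.47 (adjusted p = 0.147), *HCN3* 0.70 (adjusted p = 0.0731), *SLC25A45* 0.58 (adjusted p = 0.0239) and *GTF2IRD2B* -0.67 (adjusted p = 0.0363).

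Some class genes were next to each other in order along a chromosome, at any distance (4440409 bases between *DMD* and *CYBB*). Among 13499 pairs of neighbouring tested genes, 254 had both members in a class, and in 180 of these (70.9%) both members moved the same way between the 96 h groups. Over all neighbouring pairs the 2 differences had the same sign in 54.0%. That share has no threshold on the differences, whereas both members of the 254 pairs passed one, so the 2 shares are not directly comparable. Of the 254 pairs, 28 were of 2 clustered histone genes, all moving the same way, and of the other 226 pairs 152 did (67.3%). Neighbours can overlap and share reads. The examples that follow were chosen after their values were seen, from neighbours that moved the same way. On chromosome 16 the overshooting cilia gene *HYDIN*, the cap methyltransferase gene *CMTR2* and *CALB2* followed each other, and *HYDIN* and *CMTR2* differed by 2.38 and 0.76 at 96 h. On chromosome 5 *PLK2*, a polo-like kinase, had 272 and 334 counts at 0 h, 387 and 337 in control and 1427 and 1285 without CTCF, and the next gene, the adaptor *GAPT*, rose with it (2.25 and 2.39 from 0 h). On chromosome 9 *CDC37L1*, *AK3*, *RCL1* and the kinase gene *JAK2* differed by 0.97, 0.77, 0.82 and 0.79 in a row. The class gene *PPAPDC2*, next to *CDC37L1*, went the other way (-1.12). The class of *AK3* was lost without CTCF-depleted replicate 1. On chromosome 12 *RASSF8*, the repressor gene *BHLHE41* and *ITPR2*, a calcium channel, fell short, *RASSF8* with a difference of -1.16 and *ITPR2* of -0.69. *BHLHE41* had 0 and 0 counts at 0 h, 20 and 25 in control and 1 and 0 without CTCF, and was not in the class in DESeq2. *SGCE* and *PEG10*, an imprinted pair with overlapping starts on chromosome 7, both fell further without CTCF. *PEG10* had 1024 and 1264 counts at 0 h, 35 and 40 in control and 2 and 8 without CTCF.

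The windows from 250 bases before to 50 after each RefSeq gene start (GRCh38.p14) were searched on both strands for the 12-letter core of the CTCF consensus motif, which has 4 positions where either of a pair of letters may stand. It was found in 0.476% of the windows of tested genes (74 of 15547). Among genes that rose without CTCF but were not called in control, 3 of 256 windows held it (1.17%), *PRAME*, *STAG1* and *DAPK2*, and among those that fell 0 of 305. The share was 0.794% for rising genes that fell short, 0.437% for falling genes that fell short and 0.445% for falling genes that overshot, with 0 of 272 for rising genes that overshot. A looser form of the core, which fixes 1 of the 4 positions and leaves the other 3 free, was searched first and gave 1.25% of all windows (195 of 15547), 0.781% of those of genes that rose and 2.3% of those of genes that fell without CTCF but were not called in control. It ran from 1.75% to 2.45% in the classes that fell short and in falling genes that overshot, and was again in 0 of 272 windows of rising genes that overshot. The order of the classes thus changed with the letters searched, the consensus form was adopted after the looser result was known, and *STAG1* matched the consensus form only.

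The shares are descriptions, and a window without the letters says nothing of binding elsewhere. Of 47 genes, the 5 of each class and those that turned round, 39 had a window. Of these *PRAME* alone had a match to the consensus form. The stretches of *PRAME* and *STAG1* are shown because they place the core letters at the start of genes that rose without CTCF, with the core, or its reverse complement, in capitals. *STAG1* was added after its values were seen:
PRAME: gactctagtGCCCCCTGCTGGccccagacg
STAG1: gcaccgcggCCAGCAGAGGGCggtccggac

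The *PRAME* stretch lies at chr22:22559290-22559319 and the *STAG1* stretch at chr3:136752398-136752427, both on the minus strand and both in an exon of at least 1 GENCODE transcript. *DAPK2*, a death-associated kinase, had 1 and 2 counts at 0 h, 7 and 2 in control and 18 and 15 without CTCF, and its class was lost in DESeq2 and in each of the 6 fits with a library left out. The letters TTGCNNAA, a form of the C/EBP motif, were in 7.62% of the windows of tested genes and in 5.47% to 10.2% of the windows of the 6 classes.

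The classes also differed in starting level and size. Falling genes that overshot had a median of 50.9 CPM at 0 h, 16.7 in control and 8.38 without CTCF, and genes that fell only without CTCF 24.9, 19.4 and 9.93 CPM. Rising genes that overshot went from a median of 1.65 CPM to 12.1 in control and 22.5 without CTCF, and those that fell short from 1.95 to 17.9 and 9.14 CPM; 43 and 52 of them had no count at 0 h. Genes that rose only without CTCF had medians of 4.15, 4.56 and 10.0 CPM. The median span of the gene body was 52.5 kb for genes that fell only without CTCF, between 32.2 and 41.9 kb for the other 5 classes and 30.7 kb over all tested genes with a position. By chromosome, the share of tested genes in a class ran from 7.27% on chromosome 19 to 17.3% on chromosome 6, with 9.22% on the X chromosome. Without clustered histone genes the share on chromosome 6 was 13.2%.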

How the data were processed

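RNA-seq was measured in 6 libraries of total RNA after ribosomal depletion, made with a stranded kit. According to the methods, the authors aligned reads to hg38 with STAR through an nf-core pipeline and counted them with featureCounts, and the deposited values are raw counts without normalization; the submitters' processing notes list STAR 2.6.1d and featureCounts 2.0.6. The methods speak of protein-coding exons, although the table also lists non-coding genes. The strand setting and the annotation release of the counting are not given in the sources used here, so values of overlapping and antisense genes are uncertain. Counts were used as deposited, and alignment and counting were not repeated.

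Symbols were joined to GENCODE release 44 by current or older name, which gave a position to 13544 of the 14758 tested genes (91.8%). Tested genes passed filterByExpr and held 99.9% of the counts. Counts were fitted with edgeR 4.0.16 (TMM scaling, quasi-likelihood test, condition as the only term, all 6 libraries) in R 4.3.3 with Benjamini-Hochberg adjustment over all tested genes. The standard error of a log2 fold change is its size divided by the square root of its F value. The fit was tested on simulated data with 200 changed genes. Summaries used Python 3.11.15 with pandas 2.3.3, numpy 2.4.6, scipy 1.17.1 and matplotlib 3.10.9. A fold against a group with no count is a bound taken at 3 counts over its 2 libraries, and ratios with 1 to 3 counts have 95% counting intervals; amplified reads carry no molecular identifiers, so these cover counting error only.

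Genes named are the 5 of each class with the largest difference at 96 h among those with at least 10 CPM in a group and both CTCF-depleted libraries beyond both control libraries, the 5 rises and 5 falls from 0 h of smallest adjusted p, up to 4 called members and the class members of each of 26 lists, genes called in opposite directions, *CTCF* and the marker genes; other genes named were chosen after their values were seen. Some genes that these rules name are not reported here. Clustered gene families and symbols of antisense or unnamed loci were left out of the choice by class. The motif search, its second form included, was added after values had been seen. The members, classes and lists were chosen with earlier results of these data known. Alternatives were DESeq2 1.42.0, RLE scaling, no filter, at least 10 counts in every library, the 4 compared libraries alone, a block for the replicate number, another pair of thresholds and each library left out in turn. Replicates 1 and 2 of a group differed by more than sampling noise (chi-square per degree of freedom 1.72 to 2.70).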

Additional observations from a re-analysis of the deposited data

Results flagged for a closer look

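The effect of the conversion differed between cells with and without CTCF in opposite directions for 19 genes, by edgeR's test of the difference between the 96 h groups, which share the 0 h libraries. The log2 difference (CTCF-depleted minus control at 96 h) was 5.23 for *WEE2-AS1*, 3.36 for *ABLIM1*, 3.14 for *NDUFA6-AS1*, 2.87 for *ABCA5*, 2.67 for *PXN-AS1*, 2.49 for *ADM2*, 2.47 for *KIAA1279*, 2.42 for *HCN3*, 1.95 for *AHI1*, 1.92 for *APCDD1*, 1.91 for *GDPD1*, 1.84 for *SLC25A45* and 1.65 for *ARRDC4*, which rose without CTCF and fell with it. The difference was -2.11 for *SETBP1*, -2.07 for *LOC100505650*, -1.60 for *COBLL1*, -1.54 for *MDGA2*, -1.38 for *GTF2IRD2B* and -1.37 for *RUFY2*, which did the reverse. In DESeq2 the change from 0 h was not called without CTCF for 6 of the 19, *APCDD1*, *HCN3*, *GTF2IRD2B*, *SLC25A45*, *GDPD1* and *LOC100505650*, with adjusted p from 0.0108 to 0.119. The 3 antisense transcripts among them overlap or adjoin *WEE2*, *NDUFA6* and *PXN*: *NDUFA6* itself differed by -0.43 and *PXN* by -0.13. *ABCA10*, which overlaps the end of *ABCA5*, rose without CTCF too and differed by 2.44 between the 96 h groups. What part shared reads had in these values was not tested.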

How the results depend on the processing

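No called fold change of a named gene reversed its direction under any alternative fit. In the motif search the order of the classes did change with the letters searched. With DESeq2 the rising genes that fell short numbered 201 and those that rose without CTCF but were not called in control 160; with at least 10 counts in every library, which also removes genes absent at 0 h, the rising genes that fell short numbered 192 and those that overshot 159. At an adjusted p under 0.05 with no fold threshold 5658 genes were lower than at 0 h, and the classes held 1426 rising and 759 falling genes that fell short, 1082 rising and 1432 falling genes that overshot, and 453 and 395 genes that rose or fell without CTCF but were not called in control. With an absolute log2 fold change over 1 the classes held 150, 114, 95, 100, 152 and 140 genes in the same order. Leaving out each library gave 3834 to 4156 genes higher and 3474 to 3748 lower than at 0 h, 246 to 305 rising and 168 to 218 falling genes that fell short, 210 to 268 rising and 278 to 357 falling genes that overshot, and 208 to 264 and 198 to 219 genes that rose or fell only without CTCF; with 1 library left in a group, that library is assumed to vary like the others. DESeq2 kept the class of 1122 of the 1685 genes. The replicate numbers did not pair the libraries (correlations of replicate differences -0.0194, 0.0109 and -0.0294 between groups), and with the replicate number as a block 4007 genes were higher and 3715 lower than at 0 h and the classes held 341, 205, 261, 377, 240 and 246 genes, with 1655 of 1685 in the same class. Among named genes, 2484 of 2512 values of the change from 0 h and 1469 of 1581 of the difference at 96 h kept direction and call. Low counts at 0 h limit folds of genes switched on to bounds, and the size of a class depends on thresholds near which many genes lie.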
